A study of Mus musculus with 12 samples.

Results

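Cachd1, Nrcam, Ndnf, Dhrs3 and Rims2 are 5 mouse genes that were chosen by their high signals in embryonic stem cells after knockdown (KD) of Nsl1. They are 5 of the 22180 genes that have a probe set of their own on the array. Each is read by 1 of the 41345 probe sets, and none of these is shared with another gene. The values that chose the genes are those of the Nsl1 KD experiment, and they are given as a description with no test.

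The data are 12 Affymetrix Mouse Gene 2.0 ST arrays of total RNA from mouse embryonic stem cells (mESCs) of the male line E14.wt, background 129P2/OlaHsd, at passage 26 to 29. All cells had been grown on CD1 feeder cells and then passaged without them, and all were infected with a lentiviral pLKO.1 puro vector that expresses a short hairpin RNA (shRNA). Experiment B set 3 arrays of cells with an shRNA to Nsl1 (shNsl1_B) against 3 arrays of cells with a non-target shRNA (shcontrol_B). Experiment A set 3 arrays of cells with an shRNA to Msl1 (shMsl1_A) against 3 arrays with the non-target shRNA (shcontrol_A). Each target was hit with 1 shRNA clone, so an effect of the target cannot be told apart from another effect of that shRNA. The methods call the replicates independent biological ones, but the labels name no separate cultures, and the p-values here reflect array-to-array spread, which may be technical.

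Nsl1, whose mouse gene symbol is Kansl1, is a scaffold of the NSL complex, and Msl1 is the scaffold of the MSL complex. Both complexes hold the histone acetyltransferase Mof, which acetylates histone H4 on lysine and is linked to active transcription. The 5 genes have different products. Cachd1 encodes a transmembrane protein related to the alpha2delta subunits of voltage-gated calcium channels, and in zebrafish it binds Wnt receptors. Nrcam encodes a neuronal cell adhesion molecule of the L1 family, which is anchored to the cytoskeleton through ankyrins. Ndnf encodes a secreted neurotrophic factor, Dhrs3 a retinaldehyde reductase that limits the supply of retinoic acid, and Rims2 a scaffold of the presynaptic active zone that binds the vesicle protein Rab3. Several of these genes are best known from neurons, whereas the cells measured here were undifferentiated mESCs by label.

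The targeted genes were read first, because they check the labels. Kansl1 has 2 probe sets. On the first, 17547591, the log2 signal was 6.45, 6.56 and 6.71 on shNsl1_B, against 7.33, 7.30 and 7.36 on shcontrol_B, and all shNsl1_B arrays lay below all shcontrol_B arrays. On the other, 17270621, the log2 signal was 8.47, 8.92 and 9.30 on shNsl1_B, against 9.14, 9.36 and 9.52 on shcontrol_B, and the groups overlapped. Msl1 went against the labels of 2 arrays of experiment A. Its log2 signal was 6.77, 9.18 and 7.64 on the arrays labelled shMsl1_A, against 8.56, 6.90 and 8.62 on the arrays labelled shcontrol_A, so the second replicate of each group carries the level of the opposite label. The limma values, the overlap counts and the list counts of experiment A are therefore also given without these 2 arrays, whereas FCROS was run with all 6. Median log2 signals of the 12 arrays lay between 5.58 and 5.78. The ES cell marker Nanog had log2 signals of 11.78, 11.67 and 11.64 on shNsl1_B, against 11.84, 11.69 and 11.86 on shcontrol_B, and that of Pou5f1 was 9.16, 9.37 and 9.19 on shNsl1_B, against 9.42, 9.32 and 9.25 on shcontrol_B.

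The promoters of the genes that could be matched are shown to set the base composition around their starts beside the expression values. RefSeq promoter windows (build GRCm38.p6, 250 bases before to 50 after the transcription start) were matched for 3 of the 5 genes, namely Cachd1, Nrcam and Dhrs3. All 3 lie on the plus strand, and the windows below stand at chr4:100776429-100776728 for Cachd1, at chr12:44328635-44328934 for Nrcam and at chr4:144892577-144892876 for the first annotated start of Dhrs3. They read 5′ to 3′ in lower case, with each CG dinucleotide (CpG) in capitals.
Cachd1: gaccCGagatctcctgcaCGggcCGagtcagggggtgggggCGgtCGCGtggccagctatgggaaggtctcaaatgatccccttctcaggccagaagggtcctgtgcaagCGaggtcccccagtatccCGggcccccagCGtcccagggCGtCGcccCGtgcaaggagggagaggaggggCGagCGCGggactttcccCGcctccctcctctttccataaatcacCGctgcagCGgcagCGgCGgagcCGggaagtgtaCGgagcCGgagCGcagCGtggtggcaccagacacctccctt
Nrcam: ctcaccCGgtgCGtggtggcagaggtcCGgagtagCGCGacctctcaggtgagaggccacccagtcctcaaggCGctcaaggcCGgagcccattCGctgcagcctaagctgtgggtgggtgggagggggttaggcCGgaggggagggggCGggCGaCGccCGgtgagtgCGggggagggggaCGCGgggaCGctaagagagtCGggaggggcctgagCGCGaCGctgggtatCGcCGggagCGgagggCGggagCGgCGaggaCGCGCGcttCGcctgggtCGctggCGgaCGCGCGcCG
Dhrs3: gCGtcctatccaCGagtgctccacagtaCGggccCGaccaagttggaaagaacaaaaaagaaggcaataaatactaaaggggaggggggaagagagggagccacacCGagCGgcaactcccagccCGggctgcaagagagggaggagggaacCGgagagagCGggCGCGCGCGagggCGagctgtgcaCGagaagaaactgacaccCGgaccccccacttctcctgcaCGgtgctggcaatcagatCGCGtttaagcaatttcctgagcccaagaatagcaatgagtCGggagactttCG

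The capitals are dense in all 3 windows. The Nrcam window holds 37 CpG, and 5.58% of the 32851 RefSeq promoters of the same length hold as many. The Cachd1 window holds 25 CpG, a number reached by 18.4% of promoters, and the Dhrs3 window holds 21, a number reached by 24.8%. The median promoter holds 7. The other annotated starts of Dhrs3 have 10 and 9 CpG, so its count depends on the start that is used. The GC box GGGCGG, searched on both strands, stands in the Cachd1 and Nrcam windows and in 35.7% of all promoters, and it is not in the Dhrs3 window. TATAAA, found in 13.6% of promoters, and the nuclear receptor half-site AGGTCA, found in 16.3%, are in none of the windows of these 3 genes on either strand. No binding was measured on these arrays, and a match or its absence is a description of the letters only.

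In experiment B all 5 genes were higher on shNsl1_B than on shcontrol_B, by 1.48-fold for Ndnf to 2.24-fold for Nrcam. For each gene all 3 shNsl1_B arrays lay above all 3 shcontrol_B arrays, which holds for 4.66% of all probe sets. The method that the study used, FCROS, which ranks fold changes over pairs of arrays, called all 5 higher, with 1.85% of all probe sets called higher. By limma with Benjamini-Hochberg adjustment no probe set of the array passed an adjusted p of 0.05 in experiment B (0%), while 2175 had an unadjusted p under 0.05, and FCROS called 766 probe sets higher and 1389 lower. With all 12 arrays in 1 limma fit, 55 probe sets were called, of which 54 were lower and 1 was higher, and the higher one was that of Cachd1 (0.00242% of all). Since the genes were chosen by these same shNsl1_B arrays, none of these calls or counts is a test of them, and nothing is read from them.

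**Figure D1:**
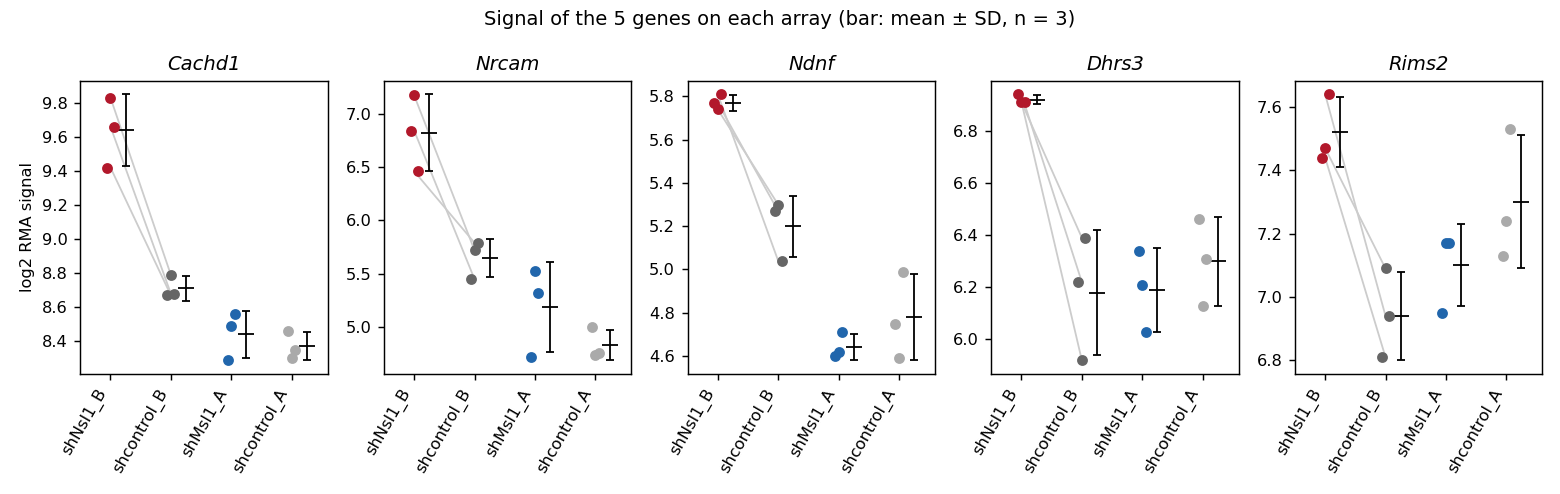
Log2 RMA signal (y axis) of Cachd1, Nrcam, Ndnf, Dhrs3 and Rims2 on each array, by group (x axis), with bars at the mean ± SD (n = 3) and grey lines joining the same-numbered arrays of experiment B. The 3 shNsl1_B arrays lie above the 3 shcontrol_B arrays in every panel, and for Rims2 the array shcontrol_A 3 at 7.53 reaches into the shNsl1_B range.

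Cachd1, the alpha2delta relative, came first in the order by limma p. Its log2 signal (probe set 17415863) was 9.42, 9.83 and 9.66 on shNsl1_B, against 8.67, 8.79 and 8.68 on shcontrol_B. The lowest shNsl1_B array stood 0.63 above the highest shcontrol_B array on the log2 scale. The means were 9.64 ± 0.21 and 8.71 ± 0.071 (SD, n = 3 each), a log2 fold change of 0.93 ± 0.13 (SE), or 1.9-fold. Same-numbered arrays differed by 0.76, 1.04 and 0.99, so replicate 1 gave the smallest difference. In size of log2 fold change Cachd1 took place 36 of 41345.

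Nrcam, the adhesion molecule, had the largest difference of the 5 genes and also the widest spread. Its log2 signal (probe set 17275255) was 6.84, 7.17 and 6.46 on shNsl1_B, against 5.45, 5.72 and 5.79 on shcontrol_B. The groups stood 0.67 apart at their closest. The log2 fold change was 1.17 ± 0.20 (SE), or 2.24-fold, between means of 6.82 ± 0.36 and 5.65 ± 0.18 (SD, n = 3 each). Same-numbered arrays differed by 1.38, 1.45 and 0.67, so that the third pair, with the lowest shNsl1_B and the highest shcontrol_B array, gave less than the others. In size of log2 fold change Nrcam took place 10 of 41345.

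Ndnf, the secreted factor, had a smaller difference with tight knockdown replicates. Its log2 signal (probe set 17459207) was 5.77, 5.74 and 5.81 on shNsl1_B, against 5.27, 5.30 and 5.04 on shcontrol_B, and the groups stood 0.44 apart at their closest. This gave a log2 fold change of 0.57 ± 0.10 (SE), or 1.48-fold. The signals were low. Ndnf outside shNsl1_B, and Nrcam in experiment A, lay below 5.58, the lowest median log2 signal of the arrays. The pair differences were 0.49, 0.44 and 0.78, and the third was the largest because shcontrol_B 3 was low.

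Dhrs3, the retinaldehyde reductase, had the tightest knockdown replicates of the 5 genes. Its log2 signal (probe set 17421312) was 6.94, 6.91 and 6.91 on shNsl1_B, against 6.22, 5.92 and 6.39 on shcontrol_B. The shNsl1_B arrays spanned 0.029, whereas the shcontrol_B arrays spanned 0.47, so nearly all of the variation between its pairs (0.72, 0.99 and 0.51) came from the control arrays. Its log2 fold change was 0.74 ± 0.13 (SE), or 1.67-fold, with the groups 0.51 apart at their closest.

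Rims2, the active zone scaffold, had the narrowest gap. Its log2 signal (probe set 17311213) was 7.44, 7.47 and 7.64 on shNsl1_B, against 6.81, 7.09 and 6.94 on shcontrol_B, and the lowest shNsl1_B array stood 0.36 above the highest shcontrol_B array. The log2 fold change was 0.57 ± 0.11 (SE), or 1.49-fold, and the pairs differed by 0.63, 0.38 and 0.71. By size of log2 fold change Dhrs3, Rims2 and Ndnf took places 115, 341 and 354 of 41345. The 15 pair differences of the 5 genes were thus all above 0, and the same was true of all 3 pairs for 18.6% of all probe sets.

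The order by limma p among named genes higher on shNsl1_B is the order in which the 5 genes are listed here, and the next 3 genes follow without a step. Meis2, a homeobox gene, had log2 signals of 7.55, 7.79 and 7.68 on shNsl1_B, against 7.25, 6.90 and 7.08 on shcontrol_B, a log2 fold change of 0.60 ± 0.12 (SE). Ptbp2, a splicing regulator of neurons, had 10.41, 10.32 and 10.22 on shNsl1_B, against 9.95, 9.85 and 9.78 on shcontrol_B (0.46 ± 0.096). Bach1, a transcriptional repressor, had 9.17, 9.16 and 9.23 on shNsl1_B, against 8.59, 8.84 and 8.76 on shcontrol_B (0.46 ± 0.097). The log2 fold change of Meis2 is above those of Ndnf and Rims2, which lie inside the set.

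Experiment A was not used to choose the genes, and it asks how they stood after KD of Msl1. None of the 5 passed limma there, and their log2 fold changes lay between -0.20 for Rims2 and 0.36 for Nrcam. No probe set of the array passed in experiment A (0%), and 3163 had an unadjusted p under 0.05. FCROS called none of the 5 genes, with 3.02% of all probe sets called in either direction. The groups overlapped for all 5, whereas 12.2% of all probe sets had groups that did not overlap in one direction or the other. Without the second replicate of each group, Ndnf was the 1 gene of the 5 whose groups did not overlap, with shMsl1_A lower, and 29.2% of all probe sets were apart in that comparison of 2 against 2 arrays. An exact permutation test of 3 against 3 arrays cannot go below 0.1.

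Cachd1 had log2 signals of 8.29, 8.49 and 8.56 on shMsl1_A, against 8.46, 8.30 and 8.35 on shcontrol_A. The log2 fold change was 0.075 ± 0.10 (SE; 95% interval -0.18 to 0.33), with a limma adjusted p of 0.821 and a two-sided exact permutation p of 0.5. Nrcam had 4.72, 5.53 and 5.32 on shMsl1_A, against 5.00, 4.74 and 4.76 on shcontrol_A, so that shMsl1_A 1 lay at the bottom and the other 2 shMsl1_A arrays above all controls. Its log2 fold change was 0.36 ± 0.22 (SE; 95% interval -0.18 to 0.90), with a limma adjusted p of 0.639 and an exact permutation p of 0.4.

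The size of the Nrcam value depended on single shMsl1_A arrays. Without shMsl1_A 1 the log2 fold change was 0.60 ± 0.12 (SE) with a limma adjusted p of 0.0272. This leaves out the shMsl1_A array with the lowest Msl1 signal, at 6.77, and keeps shMsl1_A 2, at 9.18. That fit called 6771 probe sets, and 10.4% of all probe sets were called higher, so Nrcam shared the call with a large part of the array. Without shMsl1_A 2, whose Msl1 signal went against its label, the log2 fold change of Nrcam was 0.19 with a limma adjusted p of 0.992. Without both shMsl1_A 2 and shcontrol_A 2, it was 0.14 with a limma adjusted p of 1. Marker lists are given beside it, although no gene of any list passed limma in experiment A. There, 9961 of all 22180 genes had a mean above that of the controls, a count not made without the second replicates. Of 15 measured markers of fibroblasts, a common kind of feeder cell, 14 had a mean above that of the controls, with a median log2 fold change of 0.34. Their mean log2 signal per array ranged from 6.86 to 7.66 on shMsl1_A and from 6.74 to 6.96 on shcontrol_A, with overlap, and without the second replicates 11 of 15 were above, with a median of 0.20. Of 12 ES cell markers 11 had a mean below that of the controls, with a median of -0.31 and mean log2 signals per array of 9.64 to 10.25 on shMsl1_A and 10.20 to 10.23 on shcontrol_A. Without the second replicates all 12 were below, with a median of -0.17. Of 11 neural progenitor markers 7 were below, with a median of -0.084, and without the second replicates 5 were below and the median was 0.03. With all arrays, Pax6 at -0.81 and Sox1 at -0.82, picked after their values were seen, were the lowest. The other markers of that list lay between -0.13 for Neurog1 and 0.17 for Hes5. The part of these markers in the Nrcam value was not tested. In RNA of whole cultures, a different number of cells of a type and a different amount of RNA per cell cannot be told apart.

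Ndnf, Dhrs3 and Rims2 had log2 fold changes below 0 in experiment A, none of which passed the test. Ndnf had log2 signals of 4.60, 4.62 and 4.71 on shMsl1_A, against 4.75, 4.59 and 4.99 on shcontrol_A. Ndnf thus differed by a log2 fold change of -0.13 ± 0.12 (SE; 95% interval -0.43 to 0.16; limma adjusted p 0.725, exact permutation p 0.4). Dhrs3 had 6.34, 6.21 and 6.03 on shMsl1_A, against 6.46, 6.13 and 6.31 on shcontrol_A. Dhrs3 thus differed by a log2 fold change of -0.10 ± 0.13 (SE; 95% interval -0.42 to 0.21; limma adjusted p 0.795, exact permutation p 0.5). Rims2 had 6.95, 7.17 and 7.17 on shMsl1_A, against 7.13, 7.24 and 7.53 on shcontrol_A. Rims2 thus differed by a log2 fold change of -0.20 ± 0.13 (SE; 95% interval -0.53 to 0.12; limma adjusted p 0.653, exact permutation p 0.3). Without the 2 arrays whose Msl1 signal went against their labels, the log2 fold changes were 0.016 for Cachd1, -0.22 for Ndnf, -0.20 for Dhrs3 and -0.27 for Rims2, each with a limma adjusted p of 1.

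**Figure D2:**
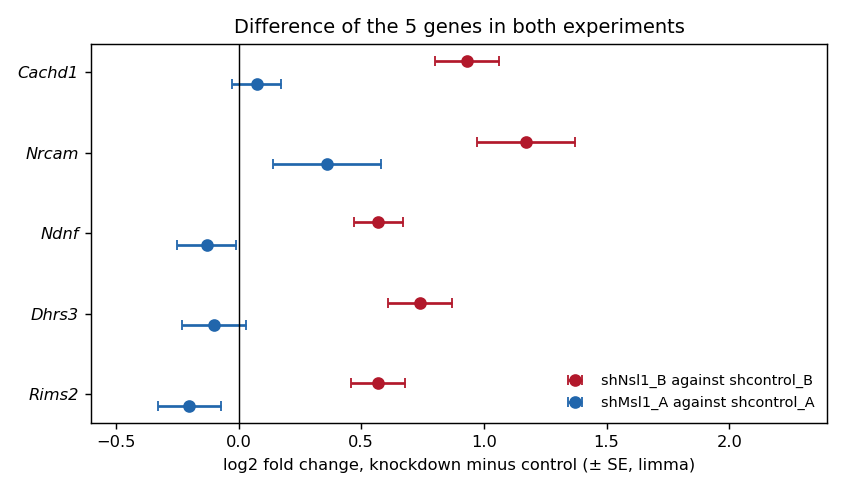
Log2 fold change with its SE (x axis, limma, n = 3 arrays per group) of each of the 5 genes, for shNsl1_B against shcontrol_B and for shMsl1_A against shcontrol_A. The first lie between 0.57 and 1.17, and the second lie between -0.20 and 0.36.

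Over all 12 arrays, the 5 genes fell into different patterns. For Cachd1, Nrcam, Ndnf and Dhrs3 every shNsl1_B array lay above the 9 other arrays, which holds for 1.34% of all probe sets, and since the shNsl1_B signals chose the genes nothing is read from that either. Rims2 was the exception, since its lowest shNsl1_B signal of 7.44 lay below the 7.53 of shcontrol_A 3. The control arrays themselves differed between the experiments. The mean log2 signal of shcontrol_B exceeded that of shcontrol_A by 0.34 for Cachd1, by 0.82 for Nrcam and by 0.43 for Ndnf, with no overlap of the arrays. For Dhrs3 the difference was -0.12 with overlapping arrays, and for Rims2 it was -0.36, with all shcontrol_B arrays below all shcontrol_A arrays. The share of all probe sets whose control groups do not overlap was not counted. These separations are therefore not read as a trait of these genes. Both control groups received the same non-target shRNA, and the experiment cannot be told apart from any other difference between these arrays. The Nrcam difference between the control groups was thus 0.82, beside 1.17 between shNsl1_B and shcontrol_B.

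Ordered by mean log2 signal, Cachd1 and Nrcam both ran from shNsl1_B through shcontrol_B and shMsl1_A to shcontrol_A. For Cachd1 the means were 9.64, 8.71, 8.44 and 8.37, and the arrays of the last 2 groups in that order overlapped. For Nrcam they were 6.82, 5.65, 5.19 and 4.83, and shMsl1_A overlapped with both of its neighbours. Ndnf ran from 5.77 on shNsl1_B and 5.20 on shcontrol_B to 4.78 on shcontrol_A and 4.64 on shMsl1_A, with overlap between the groups of experiment A. For Dhrs3 the 3 groups other than shNsl1_B had means of 6.18 to 6.30 and overlapped with each other. For Rims2 the order was 7.52 on shNsl1_B, 7.30 on shcontrol_A, 7.10 on shMsl1_A and 6.94 on shcontrol_B, and every neighbour in it overlapped.

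The genes most like each of the 5 were named by Pearson correlation over the 12 arrays, which share the group structure and the experiment. The 12 arrays include the shNsl1_B arrays that chose the 5 genes, so r is in part set by that choice. The correlations are a description, and nothing is read from their size. Cachd1 and Nrcam were among the 3 genes most like each other (r = 0.96), and the correlation of their deviations from the group means was 0.59. Sulf1, an extracellular sulfatase, was as like Cachd1 (r = 0.96, deviations 0.84), with mean log2 signals of 10.65 on shNsl1_B, 10.12 on shcontrol_B, 9.96 on shMsl1_A and 9.95 on shcontrol_A. Kcng3, a potassium channel subunit, followed (r = 0.94, deviations 0.15). Beside Nrcam stood Tef, a transcription factor of the circadian output (r = 0.96), and Trh, the precursor of thyrotropin-releasing hormone (r = 0.93).

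**Figure D3:**
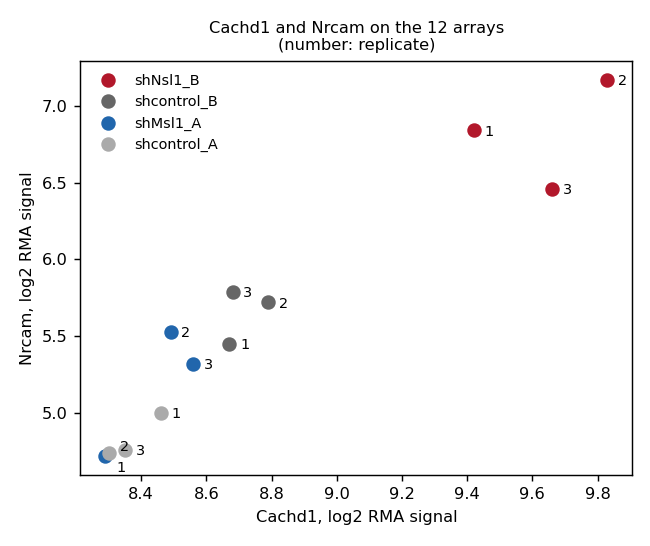
Log2 RMA signal of Cachd1 (x axis) against that of Nrcam (y axis) on the 12 arrays, coloured by group and numbered by replicate. The 3 shNsl1_B arrays stand at the upper right, with Cachd1 at 9.42 or more and Nrcam at 6.46 or more, and shMsl1_A 1 lies among the shcontrol_A arrays at the lower left.

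Ndnf was most like Nr6a1, an orphan nuclear receptor, Ttn, the giant muscle protein titin, and Sntb1, a syntrophin (r = 0.96 each). All 3 had a higher mean on shcontrol_B than on shcontrol_A, as Ndnf had, and Ttn stood at mean log2 signals of 6.41 on shNsl1_B, 6.02 on shcontrol_B, 5.44 on shMsl1_A and 5.69 on shcontrol_A. Dhrs3 was most like Vwa5b1 (r = 0.94), Lrig1, a negative regulator of growth factor receptors (r = 0.93), and Mbd6, a methyl-CpG-binding domain protein (r = 0.92). Lrig1 had means of 7.76 on shNsl1_B, 7.31 on shcontrol_B, 7.36 on shMsl1_A and 7.35 on shcontrol_A, so that its other 3 groups lay close together, as those of Dhrs3 did. Rims2 had the least close neighbours, which were Tmem121b (r = 0.88), Irak1, a kinase of interleukin receptor signalling (r = 0.86), and Rnf149 (r = 0.85). Within the set, the lowest correlation over the 12 arrays was that of Nrcam with Rims2 (r = 0.45), and the deviations of Dhrs3 and Rims2 from their group means ran in opposite directions (r = -0.46).

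The other genes of the families and pathways of the 5 were counted from 10 lists, which leave out the 5 genes themselves, and 6 more lists hold the NSL complex and cell type markers. Of 248 measured genes on these 16 lists, none passed limma at an adjusted p of 0.05 in either experiment. Of the 180 genes on the 10 pathway lists, 7 were higher and 3 lower in experiment B at an unadjusted p below 0.05. That is 5.56% of them, beside 6.82% of all genes, and FCROS called 6 higher and 2 lower. In experiment A 8 were higher and 6 lower at that level, which is 7.78% beside 7.59% of all genes, and FCROS called 0 higher and 3 lower. Of the 71 genes on the other 6 lists, 2.82% were below that level in experiment B and 18.3% in experiment A, where 5 were higher and 8 lower and FCROS called 4 higher and 6 lower. Without the second replicates of experiment A the shares were 1.67% of the pathway genes and 2.82% of the other list genes, beside 1.94% of all genes. Over all 22180 genes, the median log2 fold change was -0.00098 in experiment B and -0.018 in experiment A. Of these genes 11028 were above the controls in experiment B and 9961 in experiment A.

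Among relatives of Cachd1, the subunits of voltage-gated calcium channels were nearly centred on 0 in experiment B. Of 25 measured, 17 were above and 8 below, with a median log2 fold change of 0.014. Cacna2d1, which encodes an alpha2delta subunit, had log2 signals of 6.95, 7.51 and 7.34 on shNsl1_B, against 6.68, 6.94 and 6.94 on shcontrol_B (0.42 ± 0.17 SE, adjusted p 0.944), and its groups all but touched, at 6.95 and 6.94. Of the Wnt receptors, 11 of 15 were above and the median was 0.097. Fzd7, a Frizzled receptor, had 9.40, 9.49 and 9.61 on shNsl1_B, against 9.12, 9.24 and 9.14 on shcontrol_B (0.33 ± 0.094 SE, adjusted p 0.72), without overlap. The co-receptor gene Ror1 had a log2 fold change of 0.46 ± 0.22 (adjusted p 1), with overlap. Its same-numbered arrays differed by 0.29, 0.48 and 0.59. With the replicate number as a block in limma its SE was 0.094 and its adjusted p 0.15.

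The other L1 family genes had smaller differences than Nrcam, and none passed the test. L1cam had log2 signals of 6.17, 6.48 and 6.42 on shNsl1_B, against 6.16, 6.15 and 6.15 on shcontrol_B, a log2 fold change of 0.21 ± 0.11 (SE, adjusted p 1). Chl1 differed by 0.094 ± 0.20 and Nfasc by 0.081 ± 0.10, each smaller than its SE. Of 21 partners of the family (ankyrins, contactins, semaphorins and their receptors), 13 were above and 8 below, with a median log2 fold change of 0.05. Ank2, an ankyrin, had 8.14, 8.17 and 7.90 on shNsl1_B, against 7.86, 7.83 and 7.61 on shcontrol_B (0.30 ± 0.12, adjusted p 0.94).

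Around Ndnf, 6 of 10 measured neurotrophic factors were above, with a median log2 fold change of 0.044. Ptn, which encodes the growth factor pleiotrophin, had log2 signals of 5.78, 5.91 and 5.59 on shNsl1_B, against 5.43, 5.24 and 5.27 on shcontrol_B (0.45 ± 0.12, adjusted p 0.663). Bdnf differed by 0.26 ± 0.14 (adjusted p 1). Of 19 fibroblast growth factor (FGF) ligands, receptors and related genes, 15 were above, with a median of 0.062. Fgf5, a ligand that marks the exit from the naive ES cell state, had a larger difference than any of the 5 genes, with a wide spread within each group. Its log2 signal was 8.07, 8.29 and 6.72 on shNsl1_B, against 6.70, 6.52 and 5.09 on shcontrol_B (1.59 ± 0.58, adjusted p 0.885). The third replicate was low in both groups, and the lowest shNsl1_B array stood just above the highest shcontrol_B array. Same-numbered arrays differed by 1.37, 1.77 and 1.63, and with the replicate number as a block in limma the SE was 0.11 and the adjusted p 0.0845.

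Around Dhrs3, the retinoid enzymes and binding proteins had 16 of 30 genes above and a median log2 fold change of 0.052. Of the enzymes that make retinoic acid, Aldh1a1 and Aldh1a2 had log2 fold changes of 0.30 ± 0.13 and 0.34 ± 0.15 (adjusted p 0.993 and 0.994), and Aldh1a3 had 0.084. Rdh10 had the highest log2 fold change of the list, at 0.53. Dhrs7, of the same enzyme superfamily as Dhrs3, had log2 signals of 6.46, 6.70 and 6.72 on shNsl1_B, against 6.91, 7.11 and 7.14 on shcontrol_B (-0.43 ± 0.12, adjusted p 0.694), with no overlap. Crabp1, a retinoic acid-binding protein, had 8.67, 8.81 and 8.23 on shNsl1_B, against 9.08, 8.87 and 9.11 on shcontrol_B (-0.45 ± 0.17, adjusted p 0.902). Of 24 retinoic acid receptors and target genes, 15 were above and 9 below with a median of 0.032. Meis2, given above, had the largest difference among them (adjusted p 0.54), while Tgm2, a transglutaminase induced by retinoic acid, had a log2 fold change of -0.26 ± 0.14 (adjusted p 1).

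None of the other RIM family genes passed the test. Rims1 had log2 signals of 6.52, 6.53 and 6.83 on shNsl1_B, against 6.53, 6.44 and 6.45 on shcontrol_B, a log2 fold change of 0.15 ± 0.11 (adjusted p 1). Rims4 and Rims3 had log2 fold changes of 0.19 ± 0.30 and -0.047 ± 0.17. Of 32 genes of the active zone and of vesicle release, 16 were above and 16 below, with a median of 0.00037. Of the Rab3 genes, whose family RIM proteins bind, Rab3d and Rab3a had log2 fold changes of -0.43 ± 0.18 and -0.28 ± 0.12 (adjusted p 0.945 and 0.989). Rab3b had -0.069 and Rab3c 0.15. Vamp1, a vesicle fusion protein, had -0.37 ± 0.17 (adjusted p 0.991), and the highest of the list was Cask, at 0.31.

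**Figure D4:**
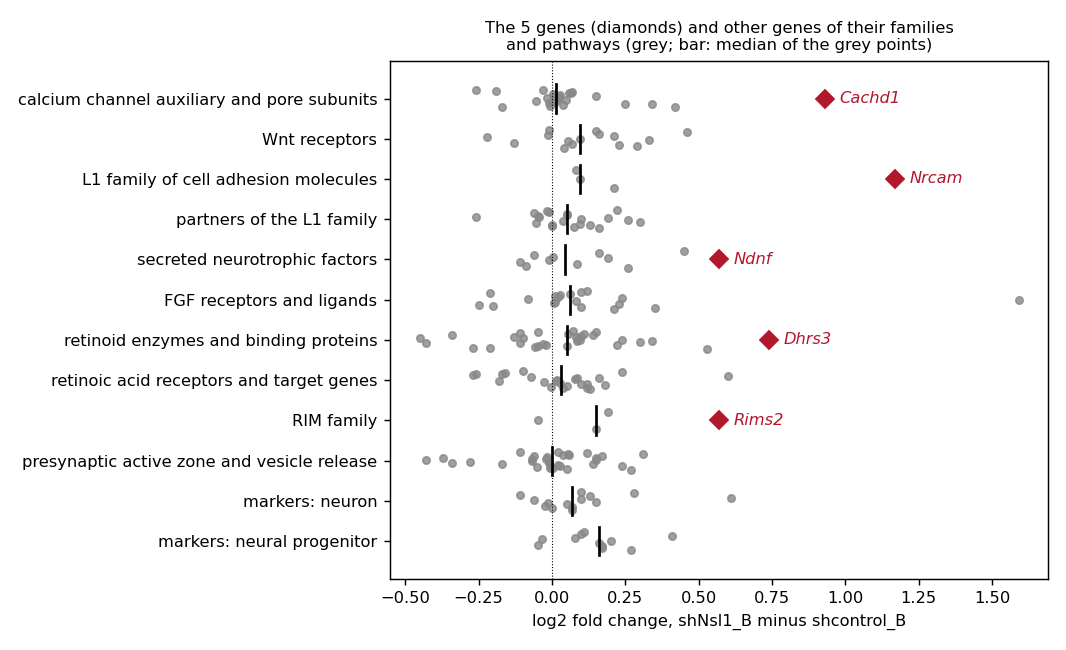
Log2 fold change of shNsl1_B against shcontrol_B (x axis) for the 5 genes (diamonds), the other measured genes of their families and pathways, and the neuron and neural progenitor markers (grey points, with a bar at the median of each list). The medians of the plotted lists lie between 0.00037 and 0.16, and Fgf5 at 1.59 is the only grey point to the right of Nrcam.

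Because several of the 5 genes are known from neurons, marker lists of cell types were read beside them. In experiment B, 9 of 14 neuron markers were above, with a median log2 fold change of 0.069, and their mean log2 signal per array ranged from 6.96 to 7.35 on shNsl1_B and from 6.86 to 7.23 on shcontrol_B. Rbfox3, a marker of mature neurons, had log2 signals of 6.16, 6.40 and 6.40 on shNsl1_B, against 6.52, 6.41 and 6.37 on shcontrol_B. Nefl, a neurofilament gene, had 8.81, 9.63 and 7.87 on shNsl1_B, against 8.19, 8.80 and 7.51 on shcontrol_B (0.61 ± 0.52, adjusted p 1), and the range within each group exceeded the difference, whereas same-numbered arrays differed by 0.62, 0.83 and 0.36 (adjusted p 0.138 with the block). Of 11 neural progenitor markers 9 were above, with a median of 0.16 and mean log2 signals of 5.71 to 6.16 on shNsl1_B and 5.65 to 5.96 on shcontrol_B. Among them Pou3f3 had 5.56, 5.53 and 5.61 on shNsl1_B, against 5.20, 5.31 and 4.96 on shcontrol_B (0.41 ± 0.11, adjusted p 0.718), with no overlap.

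Markers of other cells were read in the same way. Of 15 fibroblast markers 9 were above in experiment B (median 0.017), with mean log2 signals of 6.96 to 7.93 on shNsl1_B and 7.05 to 7.70 on shcontrol_B, and the median was 0.38 without shNsl1_B 1. Postn, a matrix protein of fibroblasts, ranged from 6.04 to 9.24 on shNsl1_B and from 5.70 to 7.68 on shcontrol_B, a log2 fold change of 1.12 ± 0.91 (SE). Its same-numbered arrays differed by 0.34, 1.46 and 1.56. With the replicate number as a block in limma its SE was 0.25 and its adjusted p 0.167. The lowest log2 fold change of the fibroblast list was -0.37. Of 10 endoderm markers 6 were above and 4 below (median 0.09, with mean log2 signals of 6.20 to 6.38 on shNsl1_B and 6.09 to 6.24 on shcontrol_B). Gata6 had 6.64, 6.25 and 6.43 on shNsl1_B, against 6.22, 6.03 and 5.99 on shcontrol_B (0.36 ± 0.13 SE, limma adjusted p 0.887), with no overlap. Cubn and Dab2 had log2 fold changes of 0.42 ± 0.33 and 0.37 ± 0.23, with overlap, and the lowest of the endoderm list was at -0.16. Of 12 ES cell markers 3 were above and 9 below (median -0.077), with mean log2 signals of 9.81 to 10.13 on shNsl1_B and 9.85 to 10.17 on shcontrol_B. Their part in the values of the 5 genes was not tested. Of 9 NSL complex genes 6 were above, with a median of 0.071, and the lowest was the targeted Kansl1 itself, at -0.45 ± 0.23 on probe set 17270621. On its other probe set, 17547591, which the list does not use, the means were 6.57 on shNsl1_B and 7.33 on shcontrol_B.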

How the data were processed

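Expression values were taken as deposited. Per the labels and the methods, the authors hybridised labelled cDNA to the arrays and normalized all signals by RMA in Affymetrix Expression Console 1.1, giving 1 log2 signal per probe set. RMA normalizes the arrays towards a common distribution, so a shift of all genes together may not be seen, and signals of different probe sets are not compared with each other. The medians still differed between arrays. In experiment B they rose with the replicate number, from 5.58 through 5.69 to 5.78 on shNsl1_B and from 5.58 through 5.66 to 5.74 on shcontrol_B. Probe sets were named from the platform annotation (23521 with 1 gene symbol, 1820 with several, 16004 with none). The 5 genes and the 16 gene lists were chosen with earlier results of these data known.

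Each experiment (6 arrays) was fitted with limma 3.58.1 in R 4.3.3 over all 41345 probe sets with Benjamini-Hochberg adjustment at 0.05, and without a filter. The methods name FCROS, which was rewritten here (9 pairs of arrays, trim 0.25, limits 0.025 and 0.975). Exact permutation tests were two-sided (scipy 1.17.1). In a list, a gene with several probe sets was read from the one with the highest mean signal. The named genes were the 5 genes, the targets, the 3 genes most like each of the 5 by correlation, the 3 that follow by limma p, all L1 and RIM family genes, and up to 4 genes with the smallest p in each other list. Pax6, Sox1, Hes5, Aldh1a3, Rdh10, Rab3b, Rab3c and Cask were chosen after their values were seen. Alternatives were median centring, a minimum mean log2 signal of 5, probe sets with 1 symbol, a replicate block, all 12 arrays, eBayes with trend and robust, FCROS, and leaving out arrays. The minimum was applied to the mean of all 12 arrays. Ndnf had group means of 5.77 on shNsl1_B, 5.20 on shcontrol_B, 4.64 on shMsl1_A and 4.78 on shcontrol_A. It passed the minimum only with the shNsl1_B arrays included, so nothing is read from that alternative for Ndnf. Deviations from the group means of same-numbered arrays correlated at 0.767, 0.326 and 0.704 in experiment B, so their differences are given as pairs. In experiment A these deviations correlated at 0.0451, -0.226 and 0.21. In both experiments the labels of same-numbered arrays share only the number, so the labels themselves state no pairing. The main fit of both experiments leaves the pairing out. So do all SE and limma adjusted p values for which the block is not named. The limma script was tested on simulated data. The number of arrays limits the precision.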

Additional observations from a re-analysis of the deposited data

How the results depend on the processing

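The number of probe sets called in experiment B was 0 in limma as used, 2155 by FCROS, 55 with all 12 arrays in 1 fit and 2 among probe sets with 1 gene symbol, and it stayed at 0 under the other alternatives, with a range of 0 to 0 over the fits without 1 array. In experiment A it was 0 in limma as used and 1247 by FCROS, and it ranged from 0 to 6771 over the fits without 1 array, with the highest value without shMsl1_A 1. The cause of these differences was not tested. The log2 fold changes of the 5 genes in experiment B stayed above 0 under 12 alternatives each, with ranges of 0.83 to 1.04 for Cachd1, 0.99 to 1.35 for Nrcam, 0.49 to 0.62 for Ndnf, 0.61 to 0.85 for Dhrs3 and 0.51 to 0.65 for Rims2. Since every shNsl1_B array lay above every shcontrol_B array for these genes, leaving out an array could not change that sign. The block, the fit of all 12 arrays, trend and robust, and fewer probe sets cannot move a difference of group means. The genes were chosen on this contrast, so nothing is read from the signs. In experiment A no sign changed under 13 alternatives each, but the sizes moved by more, from 0.016 to 0.15 for Cachd1, 0.14 to 0.60 for Nrcam, -0.23 to -0.027 for Ndnf, -0.20 to -0.022 for Dhrs3 and -0.29 to -0.088 for Rims2. The lowest sizes of Ndnf and Rims2 came without shcontrol_A 3 and that of Dhrs3 without shMsl1_A 3. Among these, the Nrcam value without shMsl1_A 1 was the only call, with limma adjusted p between 0.0272 and 1 over its alternatives. List medians moved by more than 1 SD in 13 of 208 values in experiment B and in 26 of 224 in experiment A. Among them, the median of the calcium channel genes in experiment B was -0.027 without shNsl1_B 1, that of the RIM family -0.08 without shcontrol_B 3 and that of the retinoid enzymes -0.047 with a minimum mean log2 signal of 5.

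With the replicate block in limma, 0 probe sets passed in experiment B (6146 at an unadjusted p under 0.05, smallest adjusted p 0.0845, against 0.163 without it) and 0 in experiment A (2887 at an unadjusted p under 0.05, smallest adjusted p 0.657). The block left the log2 fold changes of the 5 genes as they were. Their SE in experiment B was then 0.094 for Cachd1, 0.17 for Nrcam, 0.1 for Ndnf, 0.11 for Dhrs3 and 0.098 for Rims2. The block changed no call.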
